A study of Homo sapiens with 6 samples.

Results

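The genes described here are 33 protein-coding genes at the distal end of the long arm of chromosome 22, in band 22q13.33, in order from ALG12 to RABL2B. MOV10L1, ADM2 and KLHDC7B were chosen by their own measured fall in the comparison described here, and the other 30 genes, called neighbours below, were chosen by position around them and not by their own values. All 33 were found by symbol among the 60564 genes of the deposited count table. After a filter on low counts 30 of the 33 members could be tested, 27 of them neighbours, out of 18786 genes tested in all. The question was whether the lower RNA of MOV10L1, ADM2 and KLHDC7B was shared by the genes beside them or was limited to single genes.

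RNA sequencing was done on CAL27, an established human line derived from a tongue squamous carcinoma. In 3 libraries the cells carried lentiviral CNTNAP2-203, a transcript of the neurexin-family gene CNTNAP2 (the OE, or overexpression, libraries), and in 3 they carried the control vector, which the control descriptions call EGFP. Both groups went through infection and selection in 5 μg/ml puromycin for 2 weeks, and both are stable lines from viruses made in HEK 293T cells. The labels do not say whether a line was a pool or 1 clone, or whether libraries came from separate cultures, so p-values speak only of how these libraries vary, which can be technical variation.

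The distal end of chromosome 22 is dense in genes of unrelated function, many of them head to head or overlapping. Its loss in the germline causes Phelan-McDermid syndrome, in which SHANK3 is the best known missing gene. As background, a segment's copy number acts on many genes at once, while a promoter usually acts on 1 gene or a head-to-head pair.

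Library totals were 38769375 to 41754789 counts in the control libraries and 36843190 to 42412703 in the OE libraries. OE replicate 3 was the shallowest library and the one with the fewest detected genes. CNTNAP2 had 0, 3 and 4 counts in the controls and 140022, 156055 and 119280 in the OE libraries, which matches the labels. The 8 squamous epithelial markers summed to 13722 to 15577 CPM (counts scaled to a library total of 1e+06) in the controls and to 13838 to 17022 CPM in the OE libraries. Fibroblast markers summed to 40.9 to 45.9 CPM against 40.0 to 42.9 CPM, leukocyte markers to 28.4 to 37.8 against 33.2 to 36.4 CPM, and endothelial markers to 6.10 to 9.66 against 8.00 to 11.5 CPM. By edgeR's quasi-likelihood test 0 markers of these 4 cell types were called. At an unadjusted p under 0.05 it had 1 squamous marker lower and 2 higher, beside 7.84% and 9.41% of all tested genes. DESeq2, edgeR with no filter on low counts and edgeR without OE replicate 3 each called 1 squamous marker lower. The squamous sum hides members that differed in opposite directions. The keratin KRT17 had 2316 ± 95.5 CPM in the controls and 1559 ± 259 CPM in the OE libraries (SD, n = 3; log2 fold change -0.57, adjusted p = 0.0848 by edgeR), below all controls. The keratin KRT5 (5126 ± 496 and 6500 ± 557 CPM, log2 fold change 0.34) and the adhesion gene EPCAM (167 ± 5.14 and 204 ± 32.0 CPM, 0.29) were above all controls. With the smallest p of their lists, PDGFRB had 0.768 ± 0.0983 and 1.18 ± 0.404 CPM, CD3E 0.949 ± 0.406 and 0.669 ± 0.158 CPM, and CDH5 6.04 ± 1.75 and 7.94 ± 1.86 CPM, all with overlapping groups. The part of these differences in the results below was not tested. Across all tested genes edgeR's quasi-likelihood test called 1.39% at a Benjamini-Hochberg adjusted p under 0.05, 0.596% lower and 0.798% higher in the OE libraries.

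MOV10L1 (ENSG00000073146, chromosome 22, 50089879 to 50161690 on GRCh38, plus strand) encodes an RNA helicase that loads precursors in the germline piRNA pathway. Its CPM values, scaled by TMM, were 6.66, 6.33 and 5.44 in control replicates 1 to 3 and 1.28, 1.07 and 1.09 in OE replicates 1 to 3. The OE libraries lay close together and far below every control. The means were 6.14 ± 0.627 and 1.14 ± 0.116 CPM (SD, n = 3), a log2 fold change of -2.42 (SE 0.19), 5.36-fold lower. These values chose the gene and are given without a test. Per length the gene was rare before the fall, at 0.737 ± 0.0771 FPKM (SD, n = 3) in the controls and 0.130 ± 0.0158 FPKM in the OE libraries, and it rested on 230 to 264 raw counts per control library and 38 to 54 per OE library.

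ADM2 (ENSG00000128165, 50481556 to 50486440, plus strand) encodes intermedin, a secreted peptide of the calcitonin and adrenomedullin family. It had 32.9, 35.6 and 35.2 CPM in the controls and 14.1, 8.47 and 14.5 CPM in the OE libraries. OE replicate 2 was the lowest, and no OE library reached a control. The means of 34.5 ± 1.45 and 12.4 ± 3.37 CPM (SD, n = 3) gave a log2 fold change of -1.48 (SE 0.20), 2.79-fold lower.

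KLHDC7B (ENSG00000130487, 50545891 to 50551023, plus strand) encodes a kelch-domain protein. It had 27.0, 23.0 and 22.3 CPM in the controls and 8.93, 6.88 and 7.52 CPM in the OE libraries, so that the groups were apart in all libraries. The means were 24.1 ± 2.53 and 7.77 ± 1.05 CPM (SD, n = 3), a log2 fold change of -1.63 (SE 0.15), 3.10-fold lower. In these bulk libraries, fewer cells with the RNA and less RNA per cell cannot be told apart. MOV10L1 starts 0.392 Mb from ADM2, and ADM2 starts 0.0643 Mb from KLHDC7B, so the 3 genes lie within 0.456 Mb of an interval of 0.883 Mb that holds all members.

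Which start of each gene these cells use was not tested. The bases just upstream of the 3 genes are shown because each gene has an annotated start of its own. They also let base content be set side by side. They are from RefSeq promoter windows on GRCh38.p14, plus strand, and end at the base before the annotated start in GENCODE (MOV10L1 and KLHDC7B) or RefSeq (ADM2). The first window has 74.8% G and C and 18 CpG sites in 123 bases.
MOV10L1, chr22:50089756-50089878: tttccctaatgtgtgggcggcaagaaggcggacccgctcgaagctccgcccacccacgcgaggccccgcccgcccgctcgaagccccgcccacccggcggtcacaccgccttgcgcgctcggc
ADM2, chr22:50481293-50481542: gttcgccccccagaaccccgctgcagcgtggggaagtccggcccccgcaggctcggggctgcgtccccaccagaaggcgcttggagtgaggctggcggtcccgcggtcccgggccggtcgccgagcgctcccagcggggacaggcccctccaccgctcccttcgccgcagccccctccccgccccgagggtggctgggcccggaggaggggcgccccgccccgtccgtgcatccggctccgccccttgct
KLHDC7B, chr22:50545649-50545890: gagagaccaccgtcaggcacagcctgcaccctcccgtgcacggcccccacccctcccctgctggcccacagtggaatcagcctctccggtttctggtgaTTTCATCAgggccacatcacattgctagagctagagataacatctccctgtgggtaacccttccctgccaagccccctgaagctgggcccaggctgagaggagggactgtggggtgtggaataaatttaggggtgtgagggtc
The ADM2 window has 78.8% G and C with 29 CpG sites in 250 bases, and the KLHDC7B window 60.3% with 4 CpG sites in 242 bases. The capitals in KLHDC7B mark the core of a C/EBP-ATF response element (CARE), TGATGNAA, read on the minus strand. Of 35116 RefSeq promoter windows of 300 bases, 3.62% held this core on either strand.

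The cyclic AMP response element (CRE) TGACGTCA, searched on both strands, was in 1.85% of all windows and in 1 of the 26 members with a window, MOV10L1. It lies at -126 to -119 from the RefSeq start, which is just inside the GENCODE gene, and is in capitals here.
MOV10L1, chr22:50089869-50089898: cgcgctcggcaTGACGTCActcccaccagg
The AP-1 motif TGANTCA (7.71% of windows) was found among members in MIOX, and the E-box CACGTG (7.26%) in MAPK12. No 2 of the 3 fallen genes shared a motif of the 5 searched, and ADM2 held none of them. A match is a description of letters, not of a bound site, and the absence of one says nothing about a factor. SCO2, CPT1B, ODF3B, SELENOO, NCAPH2, PANX2 and ARSA had no promoter entry in the RefSeq table.

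For 25 of the 27 tested neighbours the fitted log2 fold change lay between -0.54 and 0.42, and the other 2, MLC1 (-1.06) and MIOX (-1.60), were rare genes. Of the 27, edgeR called 0 lower and 0 higher, beside 0.596% and 0.798% of all tested genes. At an unadjusted p under 0.05 edgeR had 6 lower (MLC1, PLXNB2, MIOX, TYMP, ODF3B and ARSA) and 2 higher (CRELD2 and NCAPH2), beside 7.84% and 9.41% of all tested genes. DESeq2 called 2 lower (TYMP and ODF3B), limma-voom 0, and limma on log2(FPKM + 1) values 1 (ODF3B). Without OE replicate 3, edgeR called 3 lower, with adjusted p = 0.0453 for MLC1, 0.0291 for TYMP and 0.0404 for ODF3B. All OE libraries lay below all controls for 7 neighbours, beside 12.8% of all genes, and above them for 2, beside 13.7%. The interval was chosen on this same contrast, so nothing is read from these shares.

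The median log2 fold change of the 27 neighbours was -0.05, a ratio of 0.968, with quartiles of -0.23 and 0.05 and a range of -1.60 to 0.42. It was -0.00 over all tested genes and 0.06 over the 304 other tested protein-coding genes of chromosome 22. Negative values were held by 19 of the 27, beside 50.4% of all tested genes. The summed level of the 30 neighbours was 1899 ± 72.3 CPM in the controls and 1732 ± 50.1 CPM in the OE libraries (SD, n = 3), 0.912 of the control. PLXNB2, the receptor gene that alone made up 31.1% of that sum in the controls, accounts for part of the gap. Without it the sums were 1308 ± 54.2 and 1251 ± 70.3 CPM, a ratio of 0.956.

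A halving would be a log2 fold change of -1. The 95% interval of the fitted change, from edgeR's SE and moderated degrees of freedom, lay wholly above -1 for 25 of the 27 neighbours. The same number had an interval wholly above -1.48, the smallest fall of the 3 chosen genes, a bar set by values that chose those genes. The 2 exceptions were MLC1 and MIOX, both rare. The interval covered 0 for 19 neighbours, lay below 0 for 6 and above 0 for 2.

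**Figure D1:**
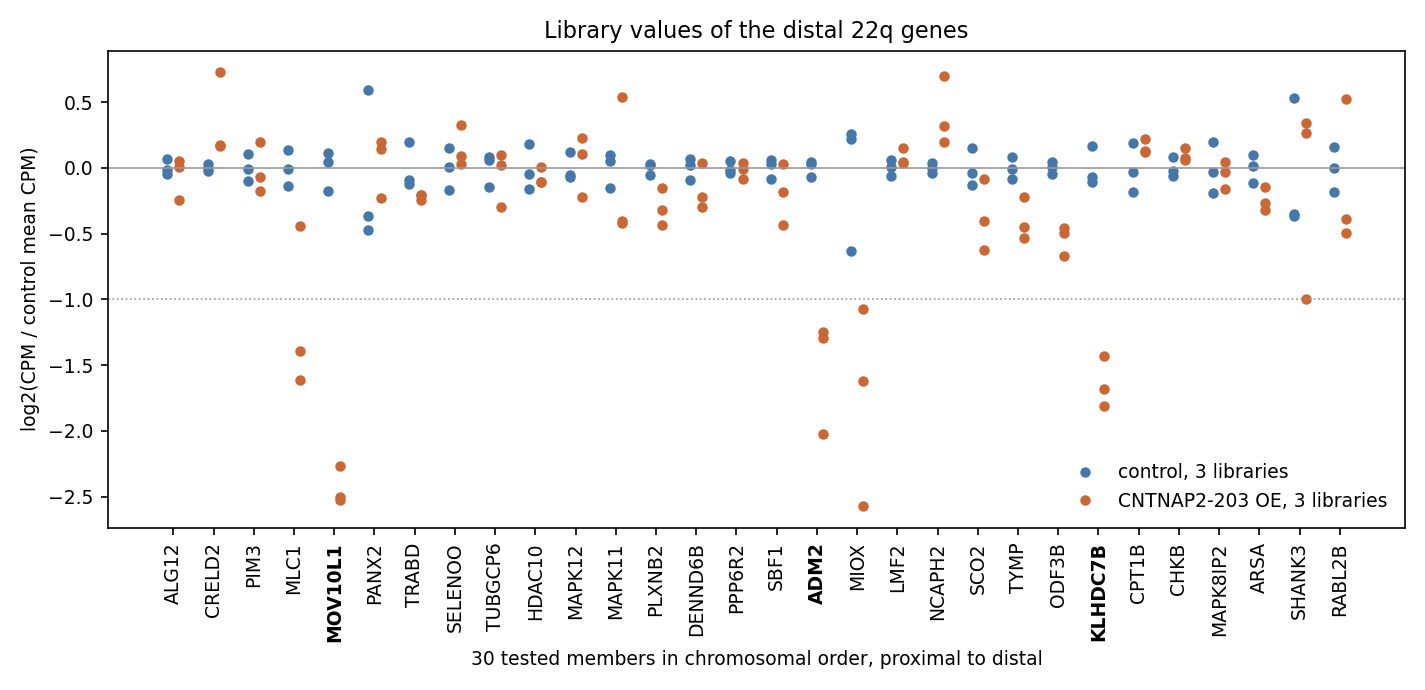
Each of the 30 tested members in chromosomal order, with the log2 ratio of a library's CPM to the mean CPM of the 3 controls on the vertical axis, controls in blue and OE libraries in orange. MOV10L1, ADM2 and KLHDC7B (bold) have all 3 OE points below the dotted line of a halving, as has MIOX, a gene of 3 to 25 counts per library, while most neighbours scatter around 0.

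On the 2 sides of MOV10L1 the nearest genes gave different values. MLC1, which encodes an astrocyte membrane protein mutated in a childhood leukoencephalopathy, starts 3976 bases away on the opposite strand. It had 1.41, 1.55 and 1.70 CPM in the controls and 0.590, 0.508 and 1.14 CPM in the OE libraries, from 56 to 72 and 21 to 40 counts. All OE libraries were below all controls, and OE replicate 3 was nearest to them. The log2 fold change was -1.06 (SE 0.35, interval -1.87 to -0.26), and edgeR's adjusted p was 0.18. Leaving out OE replicate 3 made it -1.50, with the adjusted p of 0.0453 given above.

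PANX2, a pannexin channel gene 9040 bases distal of MOV10L1 on the same strand, had 34.6, 16.6 and 17.8 CPM in the controls and 26.4, 19.6 and 25.4 CPM in the OE libraries. Control replicate 1 was the highest of the 6 and the groups overlapped. Its log2 fold change was 0.05 (SE 0.29). TTLL8, a tubulin glycylase family gene proximal of MLC1, had 0 counts in every library. PIM3, a serine/threonine kinase gene proximal of TTLL8, was among the most abundant members per length, at 68.4 ± 5.07 FPKM in the controls and 65.9 ± 6.56 FPKM in the OE libraries (SD, n = 3).

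The 11 tested neighbours between MOV10L1 and ADM2 had a median log2 fold change of -0.05 and a range of -0.30 to 0.15. They are PANX2, TRABD, SELENOO (a mitochondrial selenoprotein), TUBGCP6 (a gamma-tubulin complex subunit), HDAC10 (a polyamine deacetylase), the p38 kinase genes MAPK12 and MAPK11, PLXNB2, DENND6B, PPP6R2 (a subunit of protein phosphatase 6) and SBF1 (a myotubularin pseudophosphatase). PPP6R2 was at 114 ± 3.90 and 112 ± 4.82 CPM (SD, n = 3), and its interval of -0.22 to 0.19 was the narrowest of the 27 neighbours. MAPK11 overlapped between groups because OE replicate 2 had 35.1 CPM while the other OE libraries had 18.0 and 18.2 CPM. HDAC10 and MAPK12 share exon bases on the same strand (55.8% of those of HDAC10), so their counts are uncertain.

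PLXNB2, a receptor for class 4 semaphorins and angiogenin, had the lowest log2 fold change of these 11. It had 603, 570 and 601 CPM in the controls and 473, 531 and 437 CPM in the OE libraries. Every OE library was lower, by a small step beside those of the chosen genes. The log2 fold change was -0.30 (SE 0.10, interval -0.54 to -0.06), and edgeR's adjusted p was 0.199. TRABD was also lower in all OE libraries, at 60.2 ± 7.75 against 51.7 ± 0.801 CPM (SD, n = 3), a log2 fold change of -0.22.

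ADM2 is flanked by SBF1 and MIOX. SBF1, which starts 6531 bases proximal on the opposite strand, had 126 ± 6.54 CPM in the controls and 111 ± 17.5 CPM in the OE libraries (SD, n = 3), with overlapping groups. MIOX, the kidney-enriched enzyme that opens the ring of myo-inositol, begins 343 bases after ADM2 ends, on the same strand. Its counts were 13, 24 and 25 in the controls and 7, 10 and 3 in the OE libraries, or 0.509 ± 0.157 and 0.164 ± 0.0782 CPM (SD, n = 3).

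All OE libraries of MIOX were below all controls. The log2 fold change was -1.60 with an SE of 0.51 and an interval of -2.77 to -0.42, and edgeR's adjusted p was 0.173. Whether some of these few counts are reads running on from ADM2 was not tested. LMF2, a lipase maturation factor gene 12300 bases further on, had 79.6 ± 3.33 and 84.0 ± 3.68 CPM (SD, n = 3), a log2 fold change of 0.08.

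**Figure D2:**
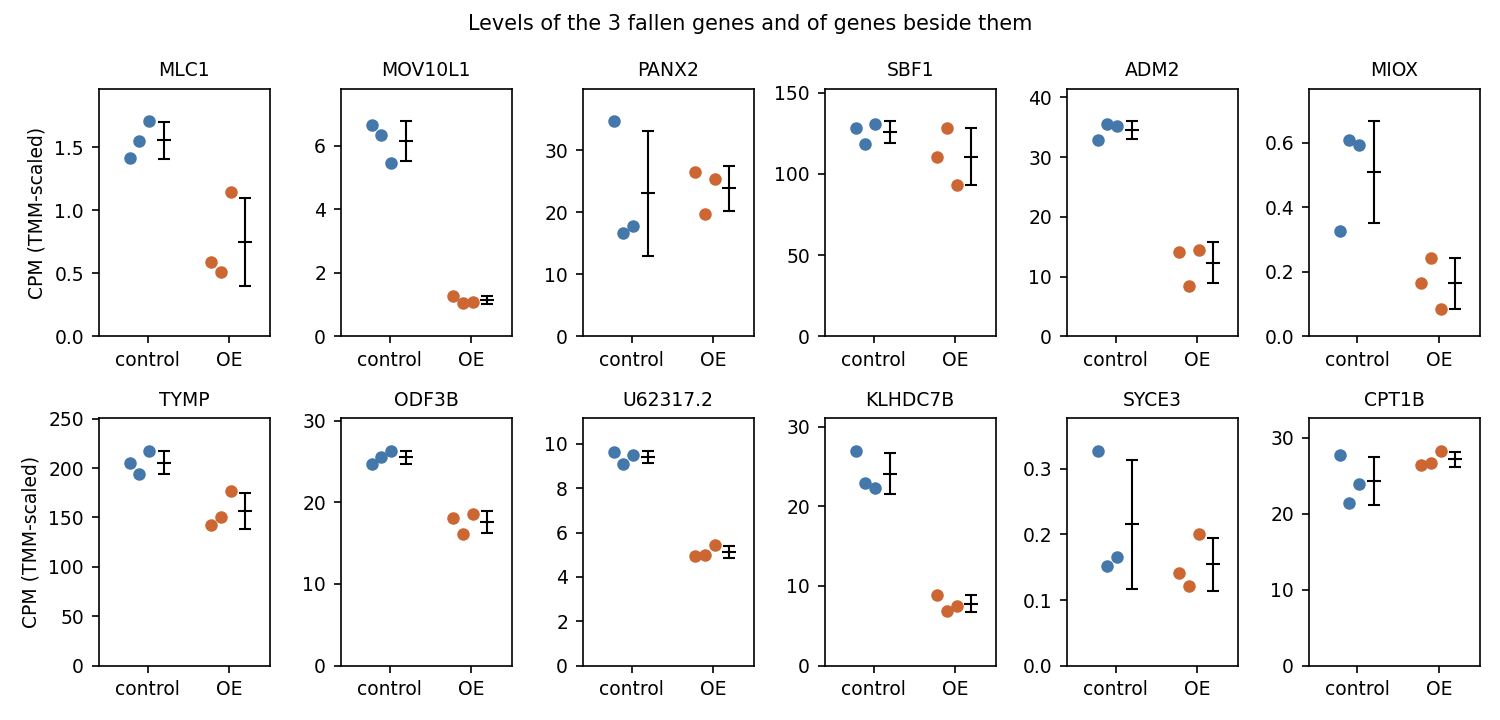
CPM of MOV10L1, ADM2 and KLHDC7B and of genes beside each, 1 point per library, with mean and SD bars, each panel on its own axis from 0. PANX2, SBF1 and CPT1B overlap between the groups, while TYMP, ODF3B and the noncoding gene U62317.2 are lower in all OE libraries by a smaller ratio than KLHDC7B.

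A run of lower values lay on the proximal side of KLHDC7B, and it was picked out after its values were seen. The 6 tested neighbours between ADM2 and KLHDC7B had a median log2 fold change of -0.37. ODF3B, an outer dense fibre family gene, had 24.7, 25.6 and 26.3 CPM in the controls and 18.1, 16.1 and 18.6 CPM in the OE libraries. The groups did not overlap, and the log2 fold change was -0.54 (SE 0.11, interval -0.80 to -0.27). By edgeR its adjusted p was 0.0731, and it had the smallest p of the neighbours.

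TYMP, which encodes thymidine phosphorylase, had 205, 194 and 218 CPM in the controls and 142, 151 and 177 CPM in the OE libraries. It was lower in all OE libraries, with OE replicate 3 the nearest to the controls. Its log2 fold change was -0.39 (SE 0.11, interval -0.65 to -0.14) and its adjusted p by edgeR was 0.138. SCO2, a copper chaperone of cytochrome c oxidase, had 15.8 ± 1.61 and 12.4 ± 2.38 CPM (SD, n = 3), a log2 fold change of -0.36 with overlapping groups. All annotated exon bases of SCO2 are shared with other annotated entries, which include a second entry of SCO2 itself and TYMP. TYMP and ODF3B overlap each other on the same strand, so these 3 genes are not fully separate readings.

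Noncoding genes lie in the same stretch. Of 23 annotated genes in the interval that are no members, 16 were tested and edgeR called 1, beside 1.39% of all tested genes. The called gene was the lincRNA listed as U62317.2 (ENSG00000272666, minus strand), which lies 2984 bases before KLHDC7B. It had 9.66, 9.09 and 9.49 CPM in the controls and 4.96, 4.99 and 5.46 CPM in the OE libraries, with a wide gap between the groups. The log2 fold change was -0.87 (SE 0.13), with an adjusted p of 0.0331 by edgeR. With the replicate number as a block the adjusted p was 0.126, and leaving out any 1 library other than OE replicate 3 gave 0.0872 to 0.175.

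U62317.5, on the plus strand 2879 bases before KLHDC7B, was near the detection limit at 0.983 ± 0.333 and 0.507 ± 0.164 CPM (SD, n = 3, adjusted p = 0.259 by edgeR). Its annotated span overlaps that of U62317.2 on the opposite strand. Reads of the overlap cannot be assigned to either gene without strand, so the 2 are not fully separate readings. U62317.3, antisense to SCO2, had 50.8 ± 2.47 and 35.6 ± 2.69 CPM (SD, n = 3; log2 fold change -0.51, adjusted p = 0.0579 by edgeR), and the kit does not mark strand, so its reads and those of SCO2 cannot be told apart.

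The run was bounded by NCAPH2 on its proximal side. NCAPH2, a condensin II subunit gene, had 56.0, 53.3 and 54.7 CPM in the controls and 68.2, 62.7 and 88.9 CPM in the OE libraries. All OE libraries were higher, and OE replicate 3 was the highest. The log2 fold change was 0.42 (SE 0.14, interval 0.10 to 0.74) and the adjusted p by edgeR was 0.182.

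On the distal side of KLHDC7B, SYCE3, a synaptonemal complex gene that ends 88 bases away on the opposite strand, had 13, 6 and 7 counts in the controls and 6, 5 and 7 in the OE libraries and was not tested. CPT1B, the muscle form of carnitine palmitoyltransferase, 17837 bases distal, had 24.3 ± 3.17 and 27.1 ± 1.02 CPM (SD, n = 3), a log2 fold change of 0.16. CHKB, a choline kinase gene, had 21.2 ± 1.14 and 22.7 ± 0.761 CPM, a log2 fold change of 0.10. Both share most exon bases with an annotated readthrough gene, CHKB-CPT1B, whose log2 fold change was -0.02.

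The 6 tested neighbours distal of KLHDC7B had a median log2 fold change of -0.03. MAPK8IP2, a JNK scaffold gene, was at 13.6 ± 1.85 and 13.1 ± 0.926 CPM (SD, n = 3). ARSA, the lysosomal arylsulfatase A gene, was at 51.9 ± 3.73 and 43.8 ± 2.81 CPM, lower in all OE libraries (log2 fold change -0.24, adjusted p = 0.28 by edgeR).

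SHANK3, the postsynaptic scaffold gene, had 14.3, 7.78 and 7.69 CPM in the controls and 12.5, 11.9 and 4.97 CPM in the OE libraries. It varied within both groups, and its interval ran from -0.99 to 0.96. RABL2B, a ciliary GTPase gene with a near-identical copy (RABL2A), had 27.0 CPM in OE replicate 3 and 13.3 to 21.0 CPM elsewhere. ACR, the acrosin gene of sperm, had 6 counts in control replicate 3, 3 in OE replicate 1 and 0 in the other libraries.

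**Figure D3:**
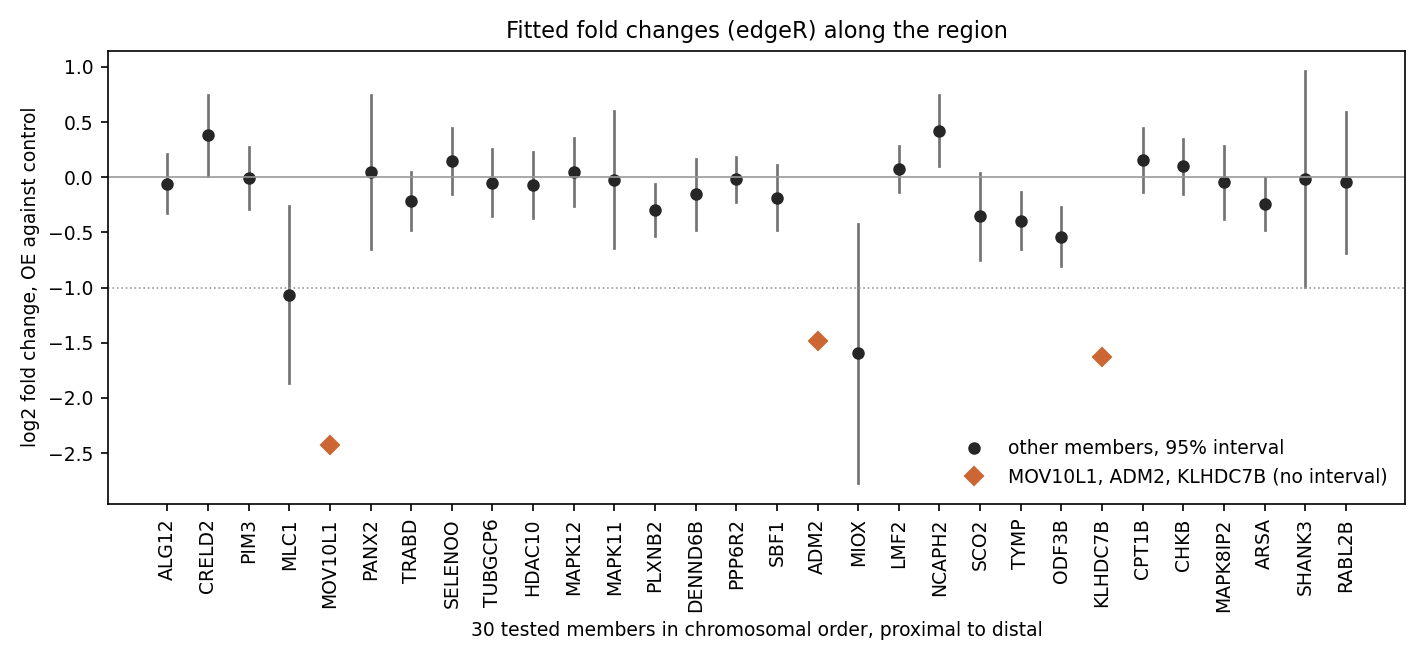
Fitted log2 fold change (OE against control) of each tested member in chromosomal order, with the 95% interval for the neighbours (circles) and without one for the 3 chosen genes (diamonds). The intervals of 25 of the 27 neighbours lie above -1, and those of MLC1 and MIOX reach below it.

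At the proximal end of the interval ALG12 and CRELD2 sit head to head. ALG12, a mannosyltransferase of N-glycan assembly, had 31.6 ± 1.31 and 30.4 ± 3.30 CPM (SD, n = 3), a log2 fold change of -0.06. Of its exon bases 42.1% are shared with CRELD2 and a lincRNA on the opposite strand. The kit does not mark strand, so the counts of ALG12 are uncertain. CRELD2, an endoplasmic reticulum protein induced by unfolded proteins, had 40.3, 39.7 and 41.1 CPM in the controls and 45.3, 45.4 and 66.7 CPM in the OE libraries. All OE libraries were higher and OE replicate 3 stood above the others, with a log2 fold change of 0.38 (SE 0.16, interval 0.01 to 0.75; adjusted p = 0.279 by edgeR). Between them RefSeq holds 1 endoplasmic reticulum stress response element (ERSE), which is a CCAAT and a CCACG held apart by a fixed spacer. It is shown, in capitals, because so few windows have it, 27 of 35116 or 0.0769%, and because it is the same element in both genes' windows.
ALG12 and CRELD2, chr22:49918548-49918577, minus strand, GRCh38.p14: atggcCCAATCCGAGTTCGCCACGagaggt
A list of 12 genes, none of them a member, held endoplasmic reticulum chaperones and also the transcription factor XBP1 and CRELD1. Of these 12 edgeR called 1 lower and 0 higher. The called gene was DNAJB9, a co-chaperone of BiP (27.6 ± 3.08 and 16.3 ± 1.54 CPM, SD, n = 3, adjusted p = 0.0451 by edgeR). Over all tested genes edgeR called 0.596% lower and 0.798% higher. At an unadjusted p under 0.05 edgeR had 2 genes of the list lower, DNAJB9 and XBP1, and 4 higher. The shares of all tested genes were 7.84% and 9.41%. DESeq2 called 2 genes of the list lower and 2 higher, and the median log2 fold change was 0.20. With the replicate block, or without any 1 library other than OE replicate 3, edgeR called 0 genes of the list lower.

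Beyond ALG12 the nearest tested protein-coding gene is ZBED4, a zinc finger gene, at 53.4 ± 4.22 and 47.6 ± 6.19 CPM (SD, n = 3; log2 fold change -0.17, adjusted p = 0.535 by edgeR). The 30 tested protein-coding genes proximal to the members span 6.74 Mb and had a median log2 fold change of 0.07, with a range of -0.46 (BRD1) to 0.70 (GTSE1). By edgeR 0 of them were called, with 2 lower and 5 higher at an unadjusted p under 0.05. Over all tested genes the unadjusted shares were 7.84% lower and 9.41% higher. The neighbours' median was thus slightly below that of the genes proximal to them, a difference that was not tested.

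Along the whole chromosome, edgeR called 7 of 475 tested genes (1.47%, beside 1.39% of all tested genes). Those called lower were MOV10L1, ADM2, KLHDC7B, U62317.2 and the noncoding gene AL035681.1 (12.6 ± 0.182 and 4.73 ± 1.08 CPM, SD, n = 3). Those called higher were the replication genes CDC45 (30.8 ± 1.82 and 48.5 ± 5.44 CPM) and MCM5 (116 ± 7.28 and 211 ± 9.69 CPM). The first 3 of the 5 lower genes chose the interval, so their nearness to each other is the selection and not a result. Their calls are counted among the 7 but are no test of them, so nothing is read from that share.

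A running median of 11 tested protein-coding genes was taken over the 334 of the chromosome. It reached its lowest value, -0.36, in the windows centred on LMF2, NCAPH2, SCO2 and TYMP, and the LMF2 window holds ADM2, MIOX, SCO2, TYMP, ODF3B and KLHDC7B. Windows made only of members ran from -0.36 to -0.02, and the 293 windows without a member ran from -0.26 (centred on SGSM1) to 0.54. With MOV10L1, ADM2 and KLHDC7B taken out, the windows made only of members ran from -0.18 to -0.02, inside the range of the windows without a member.

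**Figure D4:**
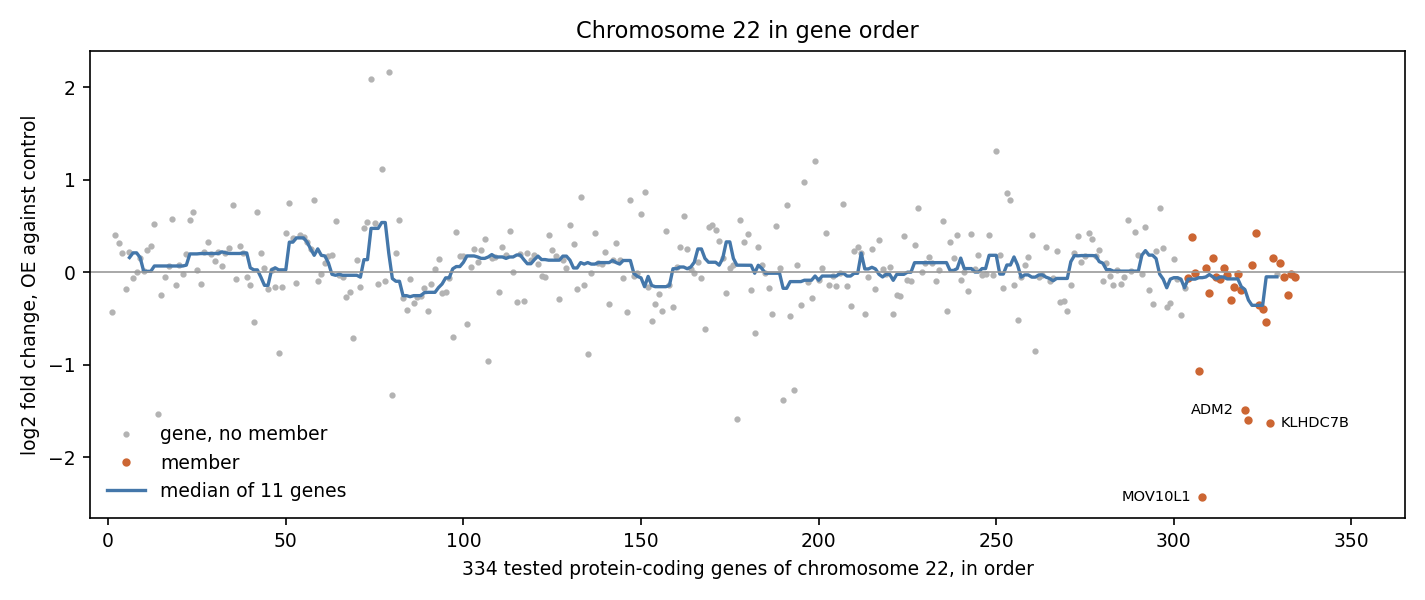
Log2 fold change of the 334 tested protein-coding genes of chromosome 22 in order, grey for genes that are no members and orange for members, with the running median of 11 genes as a line. MOV10L1, ADM2, MIOX and KLHDC7B lie far below the line, which dips to -0.36 near the distal end.

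By library, the median deviation of the neighbours was taken from their mean over the 3 controls, on the log2(CPM + 0.5) scale. It was 0.03, -0.05 and 0.04 in the controls and -0.10, -0.10 and 0.01 in the OE libraries. By this median OE replicate 3, the library with the lowest total, was at the level of the controls. Its MOV10L1, ADM2 and KLHDC7B values lay below those of every control. The summed neighbours gave another picture, with 1958, 1819 and 1922 CPM in the controls and 1675, 1752 and 1769 CPM in the OE libraries. By that sum every OE library, OE replicate 3 among them, was below every control.

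Genes of the same pathways elsewhere in the genome were read from lists. In the piRNA list, 9 of 23 genes were tested, with a median log2 fold change of 0.08. On all libraries edgeR called 0 (0 also at an unadjusted p under 0.05), as did DESeq2 and limma. Without OE replicate 3 edgeR called 1 higher, in a fit that called 545 of 19470 tested genes. The smallest p was that of MYBL1, the transcription factor of the pathway, at 7.23 ± 2.33 and 16.6 ± 9.14 CPM (SD, n = 3, adjusted p = 0.297 by edgeR). It had 226, 391 and 257 counts in control replicates 1 to 3 and 815, 995 and 224 in OE replicates 1 to 3. OE replicate 3 was thus apart from the other OE libraries. In this list 4 genes had 0 counts throughout. MOV10, the somatic paralog of MOV10L1, had 159 ± 5.10 and 145 ± 5.44 CPM, a log2 fold change of -0.14. Of 7 male germ cell markers 4 were at 0 in every library and the sum was 0.237 to 0.481 CPM in the controls and 0.114 to 0.218 CPM in the OE libraries, so the cells carried MOV10L1 RNA with almost none of these.

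In the adrenomedullin list 4 of 10 genes were tested and edgeR called 0, with 1 called higher by DESeq2. At an unadjusted p under 0.05 edgeR had 1 lower and 1 higher, beside 7.84% and 9.41% of all tested genes. ADM, the paralog of ADM2, had 124 ± 38.1 and 142 ± 18.4 CPM (SD, n = 3). CALCRL, which forms the receptor, had 3.48 ± 0.718 and 2.22 ± 0.473 CPM, and its partner RAMP1 had 12.3 ± 1.83 and 19.4 ± 4.34 CPM (adjusted p = 0.144 by edgeR). Of 9 KLHDC genes 6 were tested, with 0 called by edgeR, 0 at an unadjusted p under 0.05, 0 by DESeq2 or limma, and a median of 0.02. KLHDC10, with the smallest p, was at 57.9 ± 1.24 and 49.8 ± 4.78 CPM (adjusted p = 0.336 by edgeR).

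The list of the ATF4 amino acid response, which was included because an earlier look at these data had shown it lower, was the list with the most calls. By edgeR 10 of its 22 tested genes were lower and 0 higher, beside 0.596% and 0.798% of all tested genes, with a median log2 fold change of -0.61. TRIB3, a pseudokinase that restrains ATF4, had 181 ± 8.87 and 72.6 ± 19.0 CPM (SD, n = 3; log2 fold change -1.32, adjusted p = 0.0252 by edgeR). NUPR1, a stress-induced chromatin protein, had 76.2 ± 6.92 and 29.7 ± 6.62 CPM (-1.36, adjusted p = 0.0174). WARS, the tryptophanyl-tRNA synthetase, had the smallest p, at 317 ± 15.7 and 165 ± 7.72 CPM (-0.94, adjusted p = 0.0093).

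The others called were VEGFA, PHGDH, CBS, SLC7A5, CEBPG, AARS and PSAT1, with log2 fold changes of -0.87 to -0.52, and ATF4 itself was at 739 ± 28.7 and 621 ± 153 CPM (-0.25, adjusted p = 0.491 by edgeR). No call of the list was left with the replicate block or without control replicate 1, control replicate 2 or OE replicate 1, while 1 was left without control replicate 3 and 4 without OE replicate 2. The median log2 fold change of the list stayed about as large, at -0.62 with the block, -0.66, -0.57 and -0.63 without control replicates 1, 2 and 3, and -0.67 and -0.54 without OE replicates 1 and 2.

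Of 14 interferon-induced genes edgeR called 0, with 3 lower and 0 higher at an unadjusted p under 0.05 and 0 called by DESeq2 or limma. Over all tested genes 7.84% were lower and 9.41% higher at that unadjusted p. OAS2, an antiviral enzyme and the smallest p of the list, had 478 ± 18.0 and 396 ± 33.2 CPM (SD, n = 3; adjusted p = 0.221 by edgeR). The median log2 fold change of 34 tested partners and relatives of the neighbours was -0.04. Of these genes edgeR called 3 higher and 0 lower, beside 0.798% and 0.596% of all tested genes. They were TK1, a thymidine kinase (75.1 ± 4.35 and 121 ± 15.2 CPM, adjusted p = 0.0405 by edgeR), and condensin subunits. The condensin subunits were NCAPH (32.8 ± 2.61 and 51.5 ± 1.47 CPM, adjusted p = 0.0333) and NCAPD3 (30.9 ± 2.02 and 48.5 ± 4.91 CPM, adjusted p = 0.0445), by edgeR. No call of this list was left with the replicate block or without any 1 of the controls or OE replicate 1, 1 was left without OE replicate 2, and without OE replicate 3 there were 5 higher and 1 lower.

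Levels per length placed the members in a wide range. In the controls 9 of the 33 had at least 10 FPKM, 18 had 1 to 10 FPKM and 6 had less than 1 FPKM, and the tested members had a median of 6.56 FPKM beside 2.33 FPKM for all tested genes. PIM3 and PLXNB2 (67.5 ± 1.81 FPKM, SD, n = 3) were highest and differed by less than their spread. The 3 chosen genes were not among the most abundant members, with 6.65 ± 0.296 FPKM for ADM2, 3.88 ± 0.407 FPKM for KLHDC7B and the 0.737 FPKM of MOV10L1. In the OE libraries ADM2 was at 2.30 ± 0.592 FPKM and KLHDC7B at 1.21 ± 0.174 FPKM. The better counted neighbours, whose average log2 CPM reached 4 or more, had a median log2 fold change of -0.02 over 21 genes, and the 6 below that had -0.26.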

How the data were processed

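The 6 CAL27 libraries came from ribosomal-RNA-depleted total RNA and an unstranded kit (TruSeq v2), per the labels' protocols. Trim Galore 0.4.4 and the build hg38 are named in the submitters' processing notes. The aligner, the counter, their annotation and strand setting were not given in the sources used here. Likewise not stated is whether the counts of control replicate 1, whose reverse-read file the labels call missing, used both reads. As values the authors deposited raw counts per gene and log2 values, read here as log2(FPKM + 1). Counts were tested with edgeR 4.0.16 in R 4.3.3 (filterByExpr, minimum count 10; TMM; robust quasi-likelihood; Benjamini-Hochberg over 18786 genes; called at 0.05). Alternatives used DESeq2 1.42.0, limma 3.58.1, RLE scaling, no filter, a replicate block and leaving out each library. CPM are TMM-scaled, an SE is the absolute log2 fold change over the root of F, and FPKM are back-transformed. Positions are from GENCODE 29, which matched 18522 (98.6%) of the tested genes. Columns of per-sample values that were left unused numbered 0. The members and lists were chosen with earlier results of these data known. Named genes were all members, the nearest proximal gene, every called gene of chromosome 22, and the called genes and smallest p of each list. Genes named outside this rule (KRT5, EPCAM, RABL2A, BRD1, GTSE1, SGSM1, CHKB-CPT1B, MOV10, ADM, CALCRL, ATF4, U62317.3, U62317.5) were picked with their values in view. The same holds for XBP1 and CRELD1. The edgeR step was checked on simulated counts with 200 changed genes. It recovered 6.15% of 1.5-fold, 50.8% of 2-fold and 89.1% of 4-fold changes. An absent call thus does not show that a change of 1.5-fold or 2-fold is absent.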

Additional observations from a re-analysis of the deposited data

How the results depend on the processing

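Over all tested genes 262 were called by edgeR, 1125 by DESeq2 and 165 by limma on log2(FPKM + 1) values, and leaving out 1 library at a time gave 14 (without control replicate 2) to 545 (without OE replicate 3). Neighbours called lower numbered 0 by edgeR, 2 by DESeq2, 1 by limma on log2(FPKM + 1), and 0 to 3 when leaving out 1 library, the 3 without OE replicate 3. No neighbour was called higher in any of these fits. The median of the neighbours was -0.13 without control replicate 2 and -0.11 without OE replicate 2, and over all fits leaving out 1 library it ran from -0.13 to -0.030. The 3 chosen genes were picked by their falls, so their calls are no test. ADM2 lost its call by edgeR with the replicate block, without any 1 of the controls and without OE replicate 1. KLHDC7B lost its call without control replicate 2, and MOV10L1 was called in all fits. When leaving out 1 library the log2 fold change of MOV10L1 ran from -2.51 to -2.36, that of ADM2 from -1.62 to -1.27 and that of KLHDC7B from -1.74 to -1.54. The cause of the changes in counts was not tested, and fits with fewer libraries have fewer degrees of freedom. No direction of the 3 genes or of the neighbours' median reversed.

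Replicate numbers are shared between the groups in the labels, but nothing says that they pair the libraries. Same-numbered libraries had correlated deviations of -0.12, 0.04 and -0.04, and control replicate 1 correlated best with OE replicate 3 (0.15). With the replicate number as a block 17 genes were called, 0 neighbours were called, and the log2 fold changes were -2.42 for MOV10L1, -1.52 for ADM2 and -1.64 for KLHDC7B.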
